A study of Mus musculus with 14 samples.

Results

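Gene expression after transverse aortic constriction (TAC) was compared with that after sham surgery in the hearts of mice lacking Ccl24, across all expressed genes. The comparison rests on 6 of the 14 libraries of the series, chosen by their labels: 4 from knockout hearts after TAC (replicates 1, 2, 4 and 5) and 2 from knockout hearts after sham surgery (replicates 1 and 2). Both groups carry the label CCL24 KO, so the deletion is shared by the TAC and the sham hearts, and the labels give no allele, strain, sex or age. Polyadenylated RNA was sequenced from ventricular tissue taken 1 week after the operation. The remaining 8 libraries came from wild type hearts after TAC (n = 6) and sham surgery (n = 2). The number of libraries in each group equals the group size in the study's design text, so each library was taken as 1 mouse.

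Narrowing the aorta raises the pressure that the left ventricle must overcome at each beat. Loaded cardiomyocytes enlarge and switch on fetal and stress genes of the sarcomere and the natriuretic peptides, while genes of fatty acid use and of the adult ion channels tend to fall, and fibroblasts and other interstitial cells divide and lay down matrix. CCL24 is a chemokine of the eotaxin family that signals through the receptor CCR3 and is made mostly by macrophages and other myeloid cells.

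The 6 knockout libraries held 17072262 to 27312449 gene counts, so that 3 counts equalled 0.105 to 0.172 CPM, the counts scaled to a library's total. Ccl24 had 8, 5, 6 and 3 counts in knockout TAC replicates 1, 2, 4 and 5 and 6 and 3 counts in the knockout sham libraries, against 56 to 105 counts in all but 1 of the wild type libraries. A library labelled as wild type TAC, replicate 1, held 3 counts, which goes against its label. It is in neither group of the knockout comparison, but as one of the 14 libraries fitted it bears on the genes tested, the scaling and the estimate of the spread. The ventricular marker Irx4 stood at 32.3 to 41.0 CPM in knockout TAC and 35.1 to 39.0 CPM in knockout sham. Of the atrial markers, Bmp10 did not exceed 0.147 CPM. Myl4 had 5.28 to 10.6 CPM in knockout TAC and 3.7 to 3.96 CPM in knockout sham. Myl7 had 0.175 to 0.861 and 0 to 0.147 CPM, and Sln 0.14 to 1.49 and 0.257 to 0.343 CPM, in the same groups. Of the eosinophil markers, Ccr3 and Epx had 0 counts in all 6 libraries. Siglecf had 5, 2, 3 and 3 counts in knockout TAC and 0 in both knockout sham libraries. Mitochondrially encoded genes took 14.9%, 15.4%, 19.2% and 16.5% of the counts in knockout TAC replicates 1, 2, 4 and 5, against 20.5% and 23.65% in knockout sham, and their part in the results was not tested. In bulk tissue, fewer cells of a type and less RNA per cell cannot be told apart. The sources do not say whether counting used strand, so values of genes that share exon bases with a tested gene on the opposite strand are uncertain. Among those named in the following paragraphs these include Aldh1l2, Ccnd1, Ccnd3, Cdk4, Cfl1, Col15a1, Dbp, Jun, Mef2a, Myh6, Myh7, Ncapg, Nmrk2, Nppa, Pde3a, Pln, Prc1 and Txnip.

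Of 15876 genes tested, 648 passed an adjusted p of 0.05 in knockout TAC against knockout sham (edgeR quasi-likelihood test, Benjamini-Hochberg), 374 of them higher (2.36% of the genes tested) and 274 lower (1.73%) after TAC. A change of at least 2-fold was seen in 205 of the higher genes but in 54 of the lower ones, and the median log2 fold change over all genes tested was -0.01. Without ranking by a model, 2705 genes (17%) had all 4 TAC libraries above both sham libraries and 2796 (17.6%) had all 4 below, so a gene whose groups do not overlap is common here. Counts of list members that passed or did not overlap, in every later paragraph, are to be read beside these shares of all genes tested. The lists were chosen with earlier results of these data known. A list's share, and the promoter shares of its members, can therefore differ from those of all genes partly through that choice. Levels are given in CPM with edgeR's scaling, and values of knockout TAC are in the order of replicates 1, 2, 4 and 5. A bracket after a gene holds its log2 fold change of knockout TAC minus knockout sham with its standard error (SE) or its adjusted p. The number of calls leaned on single libraries: 1 gene, Sik1, passed when knockout sham replicate 1 was left out and 183 when it was knockout sham replicate 2. Leaving out TAC replicate 2 gave 200 calls, and leaving out TAC replicate 5 gave 374. Every one of the 648 genes that could be fitted kept its direction in all of these fits. That outcome was largely fixed beforehand, since all 374 higher and 273 of the 274 lower genes had no overlap between groups. Without the library labelled as wild type TAC, replicate 1, 842 genes passed, 644 of the 648 among them, and without wild type TAC replicate 7 the number was 1361. Fitted alone, the 6 knockout libraries gave 1458 calls.

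**Figure D1:**
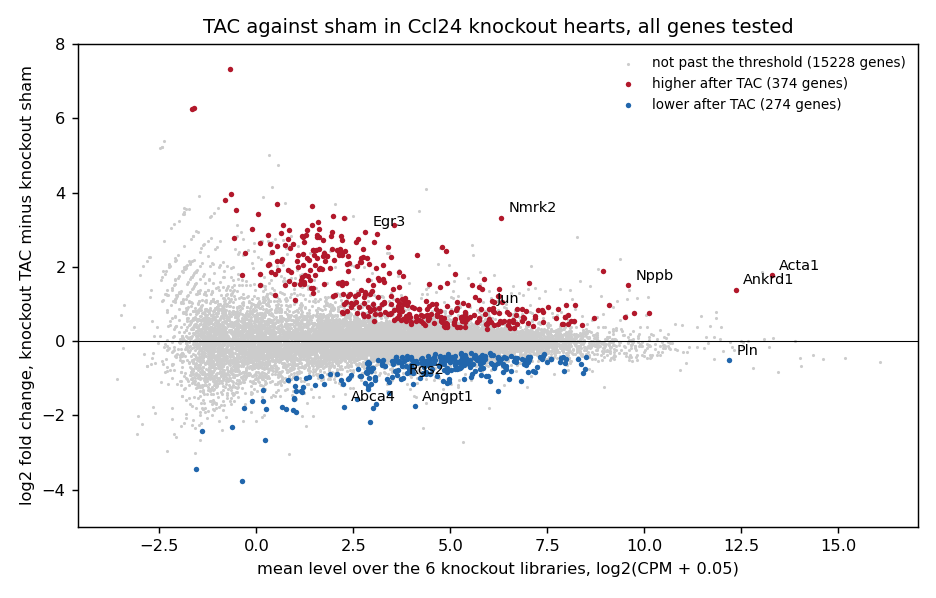
Log2 fold change of knockout TAC minus knockout sham (vertical axis) against mean level over the 6 knockout libraries in log2(CPM + 0.05) (horizontal axis) for the 15876 genes tested. The 374 genes higher after TAC (red) reach larger changes than the 274 lower ones (blue); the 3 red points above 5 are AC105304.1, Lrr1 and Psca, named after their values were seen, which had 0 counts in both sham libraries, so that their position depends on the prior count of the fit.

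The TAC hearts were not equally far from the sham hearts. Among the 374 higher genes, the lowest TAC value was in replicate 4 for 240, and the highest was in replicate 2 for 218 and in replicate 1 for 96. Among the 274 lower genes, the lowest value was in replicate 2 for 127 and in replicate 5 for 80. Replicate 4, which also had the highest mitochondrial share of the TAC libraries, was thus nearest to sham at most of the genes that rose, and each fold change is an average over hearts that changed unequally.

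**Figure D2:**
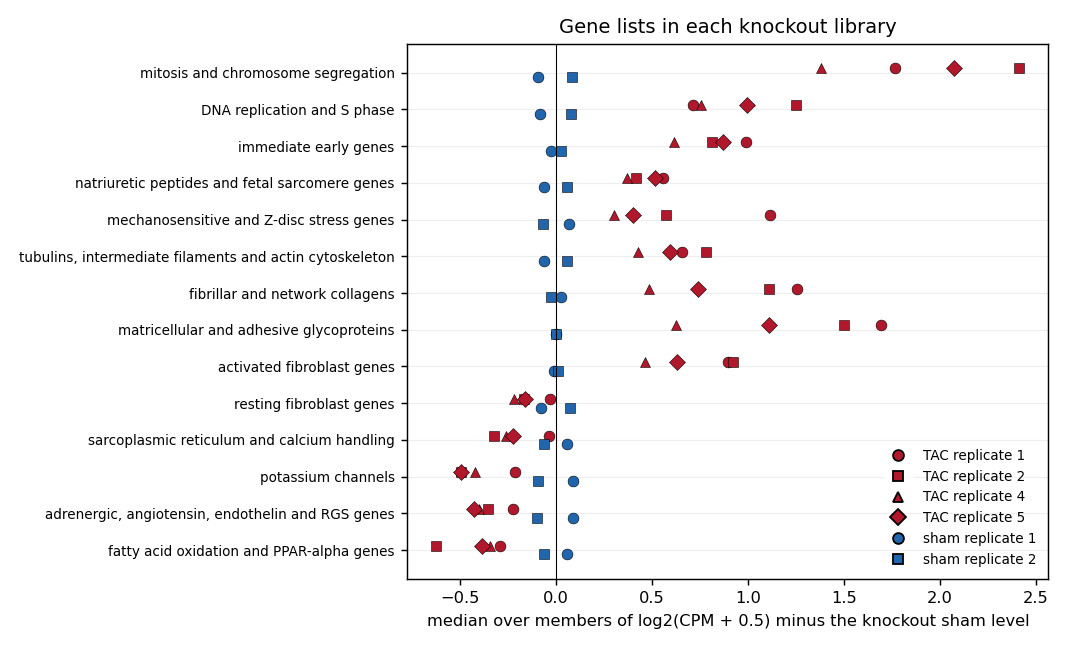
Median over the tested members of 14 gene lists of log2(CPM + 0.5) minus the same of the knockout sham mean (horizontal axis), for each knockout TAC library (red) and each knockout sham library (blue). TAC replicate 4 (triangles) is the lowest TAC library for the mitosis, Z-disc, collagen and matricellular lists, while replicate 1 (circles) leads the matricellular and Z-disc lists and replicate 2 (squares) the cell cycle lists.

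Genes of cell division rose almost throughout. Of 35 genes of mitosis and chromosome segregation, 34 rose, where 2.36% of all genes tested did, and Ttk, a spindle checkpoint kinase, missed the threshold (1.92, adjusted p = 0.057). The list median was 2.35, and all 35 had every TAC library above both sham libraries. Mki67, the usual marker of cycling cells, had 31.1, 53.6, 28.6 and 39.6 CPM in knockout TAC, against 6.27 and 7.0 CPM in knockout sham (log2 fold change 2.53, SE 0.36, adjusted p = 0.00424). Cdk1, the kinase that drives entry into mitosis, had 9.34, 14.5, 8.97 and 12.4 CPM in knockout TAC and 1.64 and 1.91 CPM in knockout sham (log2 fold change 2.66, SE 0.38, adjusted p = 0.00302). Both genes were highest in TAC replicate 2 and lowest in replicate 4, where 32 of the 35 members had their highest TAC value and 32 their lowest. Large changes were those of Sgo1, which protects the cohesion of sister centromeres (3.69, SE 0.69), Ncapg, a condensin subunit (3.65, SE 0.58), Prc1, which bundles the microtubules of the midzone (3.12, SE 0.45), and Ccnb1, the cyclin partner of Cdk1 (3.01, SE 0.48). Tpx2, a spindle assembly factor (log2 fold change 2.9, SE 0.36, adjusted p = 0.00223), and Cks2, a small subunit of the cyclin-dependent kinases outside the list (log2 fold change 3.12, SE 0.39, adjusted p = 0.00223), had 2 of the smallest p-values of the comparison. The counts behind these genes were small in sham: Sgo1 had 0 and 6 reads there, against 33, 67, 41 and 41 after TAC.

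Promoters are shown for this list because nearly all of its members rose. Members were taken in order of p, and only windows that hold one of the searched stretches of letters could be printed. RefSeq promoter windows (GRCm38.p6) were found for 31 of the 35 genes, and 3 are printed from 5′ to 3′, with capitals for the CCAAT box (CCAAT) and the cell cycle homology region (TTTGAA) on either strand: Cdk1 at chr10:69352863-69353162 on the minus strand, Ccnb2, a mitotic cyclin gene, at chr9:70421505-70421804 on the minus strand, and Prc1 at chr7:80294201-80294500 on the plus strand.
Cdk1: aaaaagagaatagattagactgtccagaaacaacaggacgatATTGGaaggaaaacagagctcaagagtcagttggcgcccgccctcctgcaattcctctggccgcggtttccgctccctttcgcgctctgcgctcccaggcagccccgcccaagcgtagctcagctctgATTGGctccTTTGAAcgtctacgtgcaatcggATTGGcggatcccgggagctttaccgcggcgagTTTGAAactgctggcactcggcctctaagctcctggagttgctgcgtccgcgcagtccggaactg
Ccnb2: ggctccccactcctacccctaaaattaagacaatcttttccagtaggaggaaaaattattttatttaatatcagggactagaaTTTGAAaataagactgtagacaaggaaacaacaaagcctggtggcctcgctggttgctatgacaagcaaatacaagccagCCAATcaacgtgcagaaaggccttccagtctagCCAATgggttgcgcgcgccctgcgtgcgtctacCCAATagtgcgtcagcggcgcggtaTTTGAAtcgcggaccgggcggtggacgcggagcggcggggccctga
Prc1: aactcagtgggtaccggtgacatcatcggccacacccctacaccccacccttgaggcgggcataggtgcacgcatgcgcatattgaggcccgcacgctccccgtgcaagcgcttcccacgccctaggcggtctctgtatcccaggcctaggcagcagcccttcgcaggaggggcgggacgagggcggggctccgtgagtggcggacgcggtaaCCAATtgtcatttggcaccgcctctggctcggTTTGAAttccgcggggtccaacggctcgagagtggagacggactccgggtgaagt
CCAAT was present in 24 of the 31 windows (77.4%), against 37.9% of all 27025 promoters and 38.3% of the 11345 promoters of tested genes. TTTGAA was present in 22 (71.0%), against 18.1% and 12%. Among 22 immediate early genes with a window the shares were 40.9% and 9.09%. A match describes the letters of the window and is not a site that was shown to be bound.

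Upstream in the cell cycle the changes were smaller. Of 33 genes of DNA replication and S phase 19 rose, with a list median of 1.05, and 30 of the 33 had no overlap between groups. Mcm6, a subunit of the replicative helicase, had 15.7, 21.2, 15.5 and 14.7 CPM in knockout TAC and 4.73 and 4.6 CPM in knockout sham (log2 fold change 1.85, SE 0.35, adjusted p = 0.013). Pcna, the sliding clamp of DNA polymerase, rose by less (0.60, SE 0.10), and Mcm10, Pclaf and Cdc6, which act in origin firing, repair at the fork and origin licensing, by more (3.0, 2.81 and 1.91). Of 18 G1 cyclins, their kinases and inhibitors 2 rose, Ccnd1 (0.80, SE 0.14) and Ccnd3 (0.35, SE 0.09), which code for D-type cyclins. Cdk4, their partner, stood at 0.32, adjusted p = 0.0581. No mitosis, replication or G1 gene passed when knockout sham replicate 1 was left out. When knockout sham replicate 2 was, 18, 3 and 1 passed, and without TAC replicate 2 they were 28, 5 and 1. With limma voom they were 23, 4 and 2, and 5 G1 genes passed without wild type TAC replicate 7.

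Some of the genes by which heart muscle reports load rose, while most members of both lists did not pass. Acta1, skeletal α-actin, had 16540, 13690, 9993 and 11770 CPM in knockout TAC, against 3638 and 3963 CPM in knockout sham (log2 fold change 1.77, SE 0.26, adjusted p = 0.0033). Ankrd1, a Z-disc protein that responds to stretch, had 8018, 6803, 5345 and 6182 CPM in knockout TAC and 2514 and 2542 CPM in knockout sham (log2 fold change 1.38, SE 0.19, adjusted p = 0.00301). Groups did not overlap for either, and replicate 1 was the highest and replicate 4 the lowest of the TAC libraries. Nppb, which codes for B-type natriuretic peptide, followed with 1286, 911, 830.4 and 895 CPM in knockout TAC and 300 and 394 CPM in knockout sham (log2 fold change 1.5, SE 0.28, adjusted p = 0.0106). Its partner Nppa had 1343, 905, 599 and 715 CPM in knockout TAC and 181 and 203 CPM in knockout sham but did not pass (2.21, adjusted p = 0.111).

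Of 15 natriuretic peptide and fetal sarcomere genes 4 rose, the other 2 being Tpm2 (0.85, SE 0.18) and Tpm4 (0.64, SE 0.14), tropomyosins of slow muscle and of non-muscle cells. The list median was 0.56. The myosin genes did not pass: Myh7, the slow heavy chain, stood at 0.40, adjusted p = 0.338 and Myh6, the adult fast chain, at -0.38, adjusted p = 0.252. Of 24 mechanosensitive and Z-disc genes 4 rose (median 0.60). Besides Ankrd1 these were Synpo2l (1.88, SE 0.36), which binds actin at the Z-disc, Nrap (0.75, SE 0.18), which acts in myofibril assembly, and Ankrd23 (0.86, SE 0.21), a relative of Ankrd1. Replicate 1 held the highest TAC value at 22 of the 24 and replicate 4 the lowest at 16. Nmrk2, a muscle kinase that makes nicotinamide mononucleotide from nicotinamide riboside, had 164, 130.5, 52.8 and 106 CPM in knockout TAC and 12.8 and 9.89 CPM in knockout sham (log2 fold change 3.32, SE 0.66, adjusted p = 0.0225). Within the NAD and creatine list Nnmt (1.29, SE 0.27), which methylates nicotinamide, also rose and Nampt (-0.60, SE 0.13), which salvages it, fell. Casq1 (1.22, SE 0.17) and Mybpc2 (1.4, SE 0.24), calsequestrin and a myosin-binding protein known from skeletal muscle, rose. They were the 2 genes called higher among 10 tested skeletal muscle genes. Myh4, a defining marker of skeletal fibres, did not exceed 0.0574 CPM in knockout TAC and had 0 counts in knockout sham. Other skeletal muscle genes were detected at low levels. Mylpf had 0.402 to 1.28 CPM in knockout TAC and 0.668 and 1.17 CPM in knockout sham. Actn3 had 0.115 to 0.221 and 0.0513 to 0.245 CPM. The myosin gene Myh8 had 5, 2, 4 and 6 counts in knockout TAC and 0 in both knockout sham libraries. Leaving out knockout sham replicate 1 ended all of these calls. Leaving out knockout sham replicate 2 left 1 of the 15 fetal and 1 of the 24 Z-disc genes past the threshold, and without TAC replicate 2 it was 2 and 2. Without wild type TAC replicate 7 the counts were 6 and 8.

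**Figure D3:**
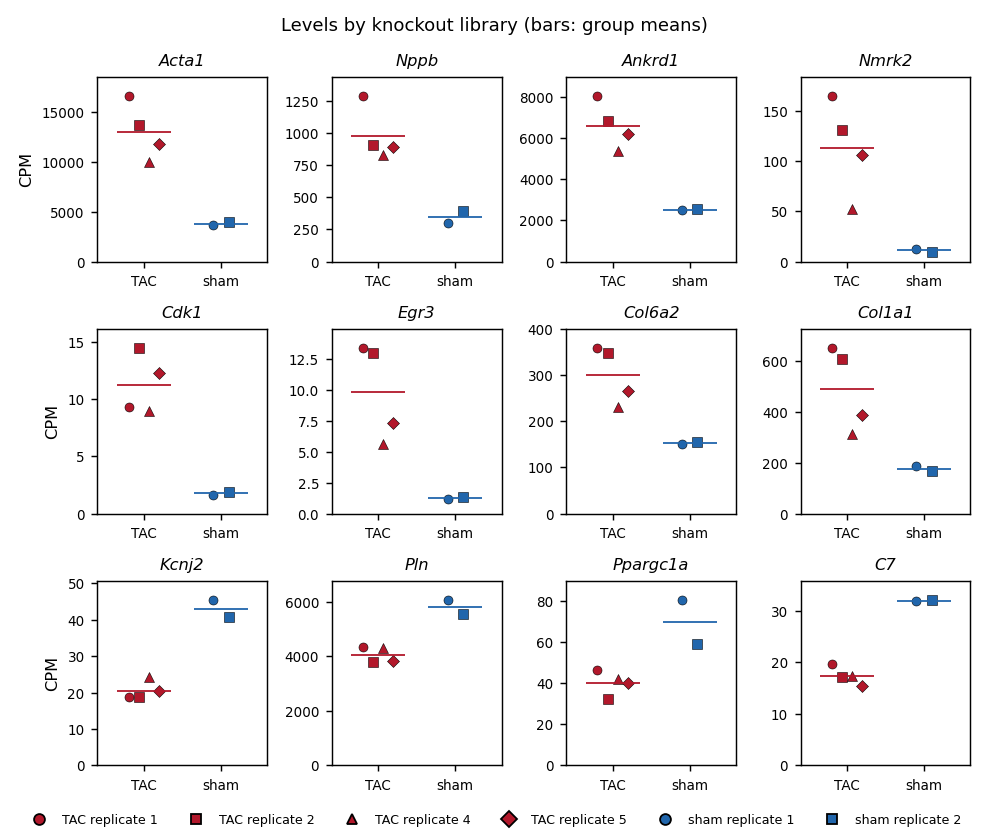
CPM of 12 genes in each knockout TAC library (red, left) and knockout sham library (blue, right), with group means as bars; each panel has its own axis from 0. TAC and sham do not overlap in any panel, and TAC replicate 4 (triangle) is the lowest TAC library for Acta1, Nppb, Ankrd1, Nmrk2, Cdk1, Egr3, Col6a2 and Col1a1.

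The CArG box, the site bound by serum response factor, was searched by its letters on either strand of promoter windows of the same kind. The pattern was CCWWWWWWGG, where W is A or T. It was present in 3 of 15 fetal gene windows (20.0%) and 4 of 21 Z-disc gene windows (19%), against 1.57% of all promoters and 1.34% of those of tested genes. The Acta1 window, at chr8:123894726-123895025 on the minus strand of GRCm38.p6, is printed with the box in capitals. It was chosen because Acta1 had the smallest p of the fetal genes whose window holds the box.
Acta1: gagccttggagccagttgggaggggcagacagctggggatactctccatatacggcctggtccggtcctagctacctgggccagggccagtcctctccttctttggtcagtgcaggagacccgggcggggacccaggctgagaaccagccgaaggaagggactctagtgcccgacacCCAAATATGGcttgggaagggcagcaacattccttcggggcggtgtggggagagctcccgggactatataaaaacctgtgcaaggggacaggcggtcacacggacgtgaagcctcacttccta
A CArG box was also present in 1 of the 22 immediate early windows (4.55%). Egr1, Egr3 and Ier2 were among the early genes without a window. Windows ran from 250 bases before the start to 50 after it, so boxes farther away were not searched.

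Immediate early genes, which cells switch on within minutes of growth signals, stretch or handling, rose at 10 of 27 members, with a median of 0.86. Every TAC library was above both sham libraries at 22 members, as at 17% of all genes tested. Jun, a subunit of AP-1, had 74.8, 80.2, 69.5 and 77.2 CPM in knockout TAC and 42.7 and 39.7 CPM in knockout sham (log2 fold change 0.87, SE 0.11, adjusted p = 0.00223). Nr4a1, an orphan nuclear receptor, had 62.5, 38.2, 42.1 and 40.2 CPM in knockout TAC and 12.4 and 13.5 CPM in knockout sham (log2 fold change 1.82, SE 0.24, adjusted p = 0.00301). TAC replicate 1 stood above the other TAC libraries for Nr4a1, and the 4 TAC libraries lay close together for Jun. Egr1 (1.56, SE 0.24), Egr2 (2.93, SE 0.44) and Egr3 (2.94, SE 0.37), zinc finger factors, and Fos (2.67, SE 0.59), the partner of Jun, also rose, as did Ier2 (0.94), Ier5 (1.22), Btg2 (1.06) and Atf3 (1.75).

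Of 17 feedback genes of MAP kinase and related signalling 4 rose. Sik1, a kinase induced by cyclic AMP, had 53.7, 46.8, 40.3 and 51.6 CPM in knockout TAC and 26.8 and 20.8 CPM in knockout sham (log2 fold change 1.02, SE 0.13, adjusted p = 0.00223). Apold1, an endothelial early response gene, had 25.2, 28.3, 26.7 and 31.5 CPM in knockout TAC and 9.81 and 9.45 CPM in knockout sham (log2 fold change 1.53, SE 0.20, adjusted p = 0.0024). Spry4 (0.73, SE 0.15) and Dusp6 (0.54, SE 0.12), which dampen ERK signalling, rose by less. Rgs2, which shortens signalling by Gq-coupled receptors, fell, with 10.8, 9.44, 9.9 and 9.02 CPM in knockout TAC and 23.2 and 16.9 CPM in knockout sham (log2 fold change -1.03, SE 0.14, adjusted p = 0.00301). Without knockout sham replicate 1 none of the 27 early genes and 1 of the feedback genes (Sik1) passed. With knockout sham replicate 2 left out, 6 and 2 did, and without TAC replicate 2, 8 and 2. With wild type TAC replicate 7 left out, 19 early genes passed. Genes of the circadian clock moved in the same hearts, with Ciart (1.84, SE 0.40), Dbp (1.08, SE 0.28) and Bhlhe40 (0.74, SE 0.16) higher among 20 members. The 3 higher clock genes were lost without either knockout sham library. Dbp was also lost without any 1 of the TAC libraries. The labels give no hour of tissue collection, and its part in these values was not tested.

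**Figure D4:**
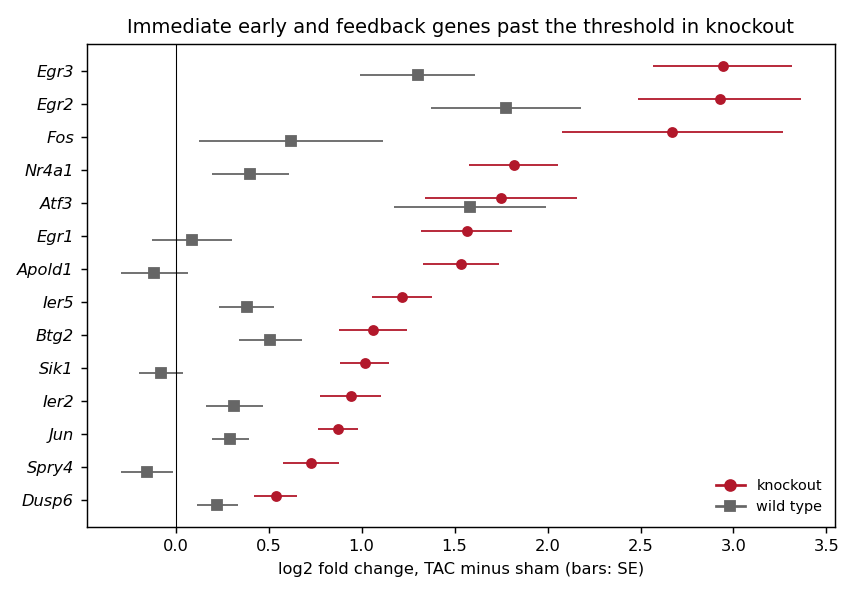
Log2 fold change of TAC minus sham with its SE (horizontal axis) for the immediate early and feedback genes that rose in knockout hearts, in knockout (red circles) and wild type (grey squares). The genes were drawn because they passed in the knockout, which favours a larger knockout value, so nothing is read from its being larger at each; for none did the difference between genotypes pass an adjusted p of 0.05.

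Most collagen genes stood higher in every TAC heart, but few passed, and the TAC hearts differed among themselves. All 22 fibrillar and network collagens had positive fold changes (median 0.97) and 19 had no overlap between groups, yet 3 passed. Col6a2, of the beaded filaments, had 357, 348, 230.1 and 265 CPM in knockout TAC and 152 and 154 CPM in knockout sham (log2 fold change 0.97, SE 0.23, adjusted p = 0.0291). The others were the basement membrane collagens Col15a1 (0.97, SE 0.26) and Col18a1 (0.62, SE 0.14). Col1a1, the main fibrillar collagen, had 649.5, 608, 312 and 387 CPM in knockout TAC, against 186 and 167 CPM in knockout sham (1.47, adjusted p = 0.172). Col3a1 stood at 1.37, adjusted p = 0.141. For Col1a1, replicates 1 and 2 were well above replicates 4 and 5, and these were above sham. Replicate 4 gave the lowest TAC value at 19 of the 22 collagens. Fitted alone, the 6 knockout libraries gave 13 collagens past the threshold, and none passed without knockout sham replicate 1, knockout sham replicate 2 or TAC replicate 2. Without the library labelled as wild type TAC, replicate 1, 5 did, as did 5 without TAC replicate 4 or wild type TAC replicate 2, 7 without wild type TAC replicate 7 and 1 without TAC replicate 1.

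Among 25 matricellular glycoproteins none passed with edgeR, although the median was 1.23 and 13 were higher and 1 lower at an unadjusted p of 0.05. DESeq2 called 11 higher and 1 lower, and limma voom called 1 higher and 0 lower. Postn, the periostin gene of activated fibroblasts, had 636, 547, 198 and 336 CPM in knockout TAC and 68.3 and 55.2 CPM in knockout sham (2.8, adjusted p = 0.0589). Tnc, tenascin C, had 53.6, 37.6, 11 and 16.9 CPM in knockout TAC and 2.06 and 1.47 CPM in knockout sham (4.08, adjusted p = 0.057). Neither overlapped between groups, and both were over 3 times as high in replicate 1 as in replicate 4. Both passed without TAC replicate 4, wild type TAC replicate 2 or wild type TAC replicate 7. Of 21 folding and crosslinking genes Loxl2, a lysyl oxidase, rose (1.68, SE 0.38, list median 0.50). That 1 call among 21 is near the 2.36% of all genes tested that were called higher. Of 19 proteoglycans Vcan (1.4, SE 0.31) and Cspg4 (0.70, SE 0.16), versican and the NG2 protein of pericytes, rose. Among 25 proteases and inhibitors 4 rose: Plaur (1.88, SE 0.35), the urokinase receptor, Plat (0.63, SE 0.16), the tissue plasminogen activator, and the matrix proteases Adamts8 (2.23, SE 0.49) and Adamts12 (0.91, SE 0.24). None of these 7 passed without either knockout sham library, and 1 of them did without TAC replicate 2. Adamts12 was lost without any 1 of the knockout libraries.

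Of 21 resting fibroblast genes 6 fell, with a list median of -0.11: C7, a complement component, Htra3, a secreted protease, Fbln1, fibulin 1, Scara5, a ferritin receptor, Vit, vitrin, and Dpep1, a dipeptidase. The list did not move as 1 block. Its fold changes ran from -1.35 to 1.14, and 2 members were higher and 9 lower at an unadjusted p of 0.05. Every TAC library was above both sham libraries at 7 members and below both at 9. Fitted alone, the 6 knockout libraries called 4 members higher and 7 lower. C7 had 19.7, 17.2, 17.4 and 15.4 CPM in knockout TAC and 32 and 32.1 CPM in knockout sham (log2 fold change -0.88, SE 0.17, adjusted p = 0.0124). Scara5 had 18.9, 17.6, 26.3 and 22.6 CPM in knockout TAC and 49.2 and 44.2 CPM in knockout sham (log2 fold change -1.13, SE 0.29, adjusted p = 0.0466). Neither gene had overlap between groups, and the TAC libraries lay within a narrow range of each other for C7. Pdgfra and Tcf21, the identity markers of cardiac fibroblasts, did not pass (-0.31, adjusted p = 0.15 and -0.18, adjusted p = 0.586). Of 23 activated fibroblast genes Meox1, a homeobox gene of activated fibroblasts, rose, with 78.8, 73, 51.4 and 68.8 CPM in knockout TAC and 21.6 and 28 CPM in knockout sham (log2 fold change 1.46, SE 0.25, adjusted p = 0.00833). The list median was 0.72, and 20 members had every TAC library above both sham libraries, as had 17% of all genes tested. Its 1 call among 23 is near the 2.36% of all genes tested that were called higher. None of the resting genes passed without knockout sham replicate 1 or 2, 1 passed without TAC replicate 2 and 2 without TAC replicate 5 or either wild type sham library or wild type TAC replicate 4, and 3 passed without TAC replicate 1 or wild type TAC replicate 3. Meox1 was lost without knockout sham replicate 1, and 5 activated genes passed without wild type TAC replicate 7.

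Among genes of the adult electrical and calcium machinery, 6 fell and 1 rose. Kcnj2, the main inward rectifier potassium channel of the ventricle, had 18.8, 18.8, 24.2 and 20.3 CPM in knockout TAC and 45.4 and 40.7 CPM in knockout sham (log2 fold change -1.07, SE 0.19, adjusted p = 0.0082). Kcnv2, a modifier subunit of voltage-gated channels (-1.69, SE 0.36), and Kcnj5, a G-protein-gated rectifier (-0.72, SE 0.17), fell as well among 20 potassium channel genes (list median -0.49). Of the 20, 10 had every TAC library below sham, as had 17.6% of all genes tested. Of 21 calcium handling genes 3 fell and Casq1 rose. Pln, phospholamban, the brake of the calcium pump, had 4347, 3781, 4312 and 3822 CPM in knockout TAC and 6057 and 5569 CPM in knockout sham (log2 fold change -0.52, SE 0.14, adjusted p = 0.0484). Cacna1c and Cacnb2, the pore and a β subunit of the L-type calcium channel, fell by 0.46 and 0.75 on the log2 scale. Atp2a2, the pump itself, had 7043, 5260, 5910 and 5149 CPM in knockout TAC and 10690 and 8707 CPM in knockout sham and did not pass (-0.73, adjusted p = 0.0682).

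Of 24 receptor and G-protein signalling genes 5 fell: Rgs2, Adrb1 (-0.59, SE 0.14), the β1-adrenergic receptor, Adra1b (-1.14, SE 0.29), an α1 receptor, Pde3a (-0.62, SE 0.14), a cyclic AMP phosphodiesterase, and Rgs6 (-0.81, SE 0.19). None of the potassium channel, calcium handling or receptor decreases passed without knockout sham replicate 1, and without TAC replicate 2 the numbers were 1, 0 and 1. Without TAC replicate 5 they were 2, 0 and 1, and without wild type TAC replicate 7 they were 7, 6 and 8. Without TAC replicate 1, 6 calcium handling genes fell. The list of 23 ventricular cardiomyocyte markers had a median of -0.05, with Mef2a (-0.43, SE 0.09), a transcription factor, and Pln lower. Its summed level was 87600 to 101000 CPM in knockout TAC and 99200 to 102000 CPM in knockout sham. Neither marker passed without either knockout sham library or TAC replicate 2.

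Fatty acid genes lay lower after TAC nearly throughout. Of 38 fatty acid oxidation and PPARα genes 36 had negative fold changes (median -0.41) and 30 had no overlap, with every TAC library below sham, and 4 passed. Ppargc1a, the coactivator of mitochondrial biogenesis, had 46.4, 32.5, 42 and 39.9 CPM in knockout TAC and 80.2 and 58.9 CPM in knockout sham (log2 fold change -0.79, SE 0.15, adjusted p = 0.0117). Esrrg (-0.83, SE 0.16), a nuclear receptor of oxidative genes, Slc27a1 (-0.84, SE 0.19), a fatty acid transporter, and Acot1 (-1.55, SE 0.35), a thioesterase with close paralogs, were the others. Ppara stood at -0.99, adjusted p = 0.057 and Pdk4, its target that blocks glucose oxidation, at -1.25, adjusted p = 0.0623. Knockout sham replicate 1 was above replicate 2 for each of these 6 genes. Among 30 genes of ketone, branched-chain amino acid and citrate cycle use 28 were negative (median -0.36) and Ppm1k, the phosphatase that activates branched-chain keto acid oxidation, fell (-0.90, SE 0.22). That 1 call among 30 is near the 1.73% of all genes tested that were called lower.

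Nuclear-encoded respiratory chain subunits moved little: of 38 none passed with edgeR, DESeq2 or limma voom, 1 was lower and 0 higher at an unadjusted p of 0.05, and the median was -0.08. Nor did any of 13 mitochondrially encoded genes pass (0 higher and 7 lower at an unadjusted p of 0.05; DESeq2 called 2 lower and limma voom 0), and the median was -0.55. The complex I transcript mt-Nd2 had 13220, 13080, 16640 and 13340 CPM in knockout TAC and 20570 and 24300 CPM in knockout sham. Leaving mitochondrially encoded genes out of the library sizes gave 406 higher and 248 lower genes overall. Without knockout sham replicate 1 no fatty acid gene passed, without TAC replicate 2 there were 2, and Ppm1k was lost without any 1 of the knockout libraries except TAC replicate 4. Fitted alone, the 6 knockout libraries gave 12 lower fatty acid genes, and 7 were lower without wild type TAC replicate 7.

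The cytoskeleton list, of tubulins, intermediate filaments and actin regulators, rose at 12 of 28 members, all 28 were positive (median 0.64) and 26 had no overlap. Tubb5, a β-tubulin, had 269, 295, 218 and 254 CPM in knockout TAC and 134 and 150.2 CPM in knockout sham (log2 fold change 0.86, SE 0.13, adjusted p = 0.00302). Vim, vimentin, had 650.5, 746, 519.6 and 669.8 CPM in knockout TAC and 322 and 342 CPM in knockout sham (log2 fold change 0.96, SE 0.18, adjusted p = 0.0105). Each TAC library was above both sham libraries for these genes, and Tuba1b (0.79, SE 0.15), Cfl1 (0.64, SE 0.12), cofilin, and Tmsb10 (0.82, SE 0.15), a thymosin, were further members that rose. Reads of near-identical tubulin genes can be shared. Leaving out knockout sham replicate 1 left no call, with knockout sham replicate 2 left out there were 4 and without TAC replicate 2 there were 7. Without wild type TAC replicate 7 there were 19.

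Among stress lists few genes passed, and 1 call in a list of this size is near the 2.36% of all genes tested that were called higher and the 1.73% called lower. In the integrated stress response list of 23, Atf4 (0.53, SE 0.11), its central factor, Atf3, Psat1 (1.27, SE 0.25), a serine synthesis enzyme, and Mthfd2 (0.79, SE 0.20), a mitochondrial folate enzyme, rose, while Vldlr (-0.81, SE 0.14), a lipoprotein receptor, and Aldh1l2 (-1.15, SE 0.29), another folate enzyme, fell. Gdf15, the circulating stress hormone, had 14.9, 13.5, 11.1 and 18.3 CPM in knockout TAC and 2.36 and 3.18 CPM in knockout sham and narrowly missed (2.37, adjusted p = 0.0551). Among 20 heat shock genes Dnajb1 rose (0.66, SE 0.12), and among 28 redox and p53 genes Phlda3 (1.01, SE 0.23) and Nqo1 (0.47, SE 0.12) rose and Gsta3 (-1.81, SE 0.34) and Txnip (-0.87, SE 0.21) fell. Rrp12, which acts in ribosome assembly, rose (log2 fold change 1.05, SE 0.18, adjusted p = 0.00687), as did Rpl3 (0.68, SE 0.17) alone among 33 ribosomal protein genes, all of which were positive with a median of 0.20. Each of these genes missed the threshold without knockout sham replicate 1. With knockout sham replicate 2 left out, none of the integrated stress response increases and 1 of the decreases passed.

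Few immune genes passed in the knockout hearts. Of 25 pan-macrophage genes none rose and 1 fell, although 8 were higher at an unadjusted p of 0.05 and the median was 0.29. DESeq2 called 2 higher, limma voom 0, and the 6 knockout libraries alone 7. Cd163, a scavenger receptor of resident macrophages, had 9.84, 10.5, 10.2 and 9.77 CPM in knockout TAC and 19 and 15.4 CPM in knockout sham (log2 fold change -0.77, SE 0.19, adjusted p = 0.0327), with all 4 TAC libraries close together and below both sham libraries. Adgre1, which codes for F4/80, had 10.1, 9.76, 6.54 and 9.2 CPM in knockout TAC and 7.04 and 8.37 CPM in knockout sham (0.21, adjusted p = 0.661). Cd68, a lysosomal marker of macrophages, had 15.5, 19.2, 14.6 and 13 CPM in knockout TAC and 11.1 and 10.4 CPM in knockout sham (0.54, adjusted p = 0.111). Summed over the list the level was 664 to 889 CPM in knockout TAC and 607 to 632 CPM in knockout sham.

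Ccl2 and Ccl7, chemokines that draw monocytes through CCR2, rose among 25 chemokine and receptor genes. Ccl2 had 11.6, 14, 6.98 and 6.44 CPM in knockout TAC and 1.95 and 2.2 CPM in knockout sham (log2 fold change 2.23, SE 0.48, adjusted p = 0.0225). Ccl7 had 7.77, 7.8, 4.99 and 4.42 CPM in knockout TAC and 1.44 and 1.08 CPM in knockout sham (log2 fold change 2.32, SE 0.47, adjusted p = 0.0153). Cxcl14 fell (-1.03, SE 0.24). Ccr2 itself stood at 0.49, adjusted p = 0.687. Of 14 tested monocyte and recruited macrophage genes 1 passed, Vcan, which is also among the proteoglycans. The list median was 0.44, with 3 members higher and 0 lower at an unadjusted p of 0.05. Every TAC library was above both sham libraries at 7 members, as at 17% of all genes tested. Their summed level was 283 to 548 CPM in knockout TAC and 178 to 207 CPM in knockout sham. DESeq2 called 3 higher and limma voom 1. Tnfrsf12a, the receptor of TWEAK, rose (log2 fold change 1.55, SE 0.21, adjusted p = 0.00302), Lifr, the receptor of LIF, fell (-0.59, SE 0.11). The interferon-induced genes Ifitm3 (0.48, SE 0.11) and Ifi27l2a (0.94, SE 0.21) rose among 26 of their list. None of the chemokine, interferon or Cd163 calls was kept without either knockout sham library, and Cd163 was also lost without any 1 of the 4 TAC libraries.

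Of 28 endothelial genes none passed with edgeR (1 higher and 2 lower at an unadjusted p of 0.05; DESeq2 called 1 higher and limma voom 0), with a median of 0.10. Pecam1 had 221, 234, 239 and 254 CPM in knockout TAC and 204 and 240.2 CPM in knockout sham (0.10, adjusted p = 0.689). Among 19 VEGF, angiopoietin and FGF ligands, Angpt1, the ligand that stabilises vessels through TIE2, fell, with 8.49, 8.64, 10.7 and 10.1 CPM in knockout TAC and 39.5 and 24.3 CPM in knockout sham (log2 fold change -1.75, SE 0.27, adjusted p = 0.0051). Fgf16 (-0.85, SE 0.18) and Fgf7 (-1.23, SE 0.28) also fell, while Fgf6, a muscle FGF, rose (1.5, SE 0.29). Sham replicate 1 held more Angpt1 than sham replicate 2, and no TAC library reached either. Without knockout sham replicate 1 none of these passed, and 1 of the 3 decreases did without knockout sham replicate 2 or without TAC replicate 2. The mesothelial marker Msln stood at 1.55 to 2.55 CPM in knockout TAC and 0.257 and 0.294 CPM in knockout sham, and Upk3b at 2.51 to 3.22 CPM in knockout TAC and 0.294 and 0.668 CPM in knockout sham. Levels of Wt1 overlapped, with 6.51 to 11.5 CPM in knockout TAC and 7.19 and 7.93 CPM in knockout sham. None of the 12 tested genes of that list passed with edgeR (6 higher and 0 lower at an unadjusted p of 0.05; DESeq2 called 4 higher, limma voom 0). Their summed level was 535 to 1260 CPM in knockout TAC and 364 to 398 CPM in knockout sham. Red blood cell genes summed to 254 to 939 CPM in knockout TAC and 138 to 275 CPM in knockout sham, highest in TAC replicate 2 at all 7 members tested. The part of surface or blood cells in the other results was not tested.

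**Figure D5:**
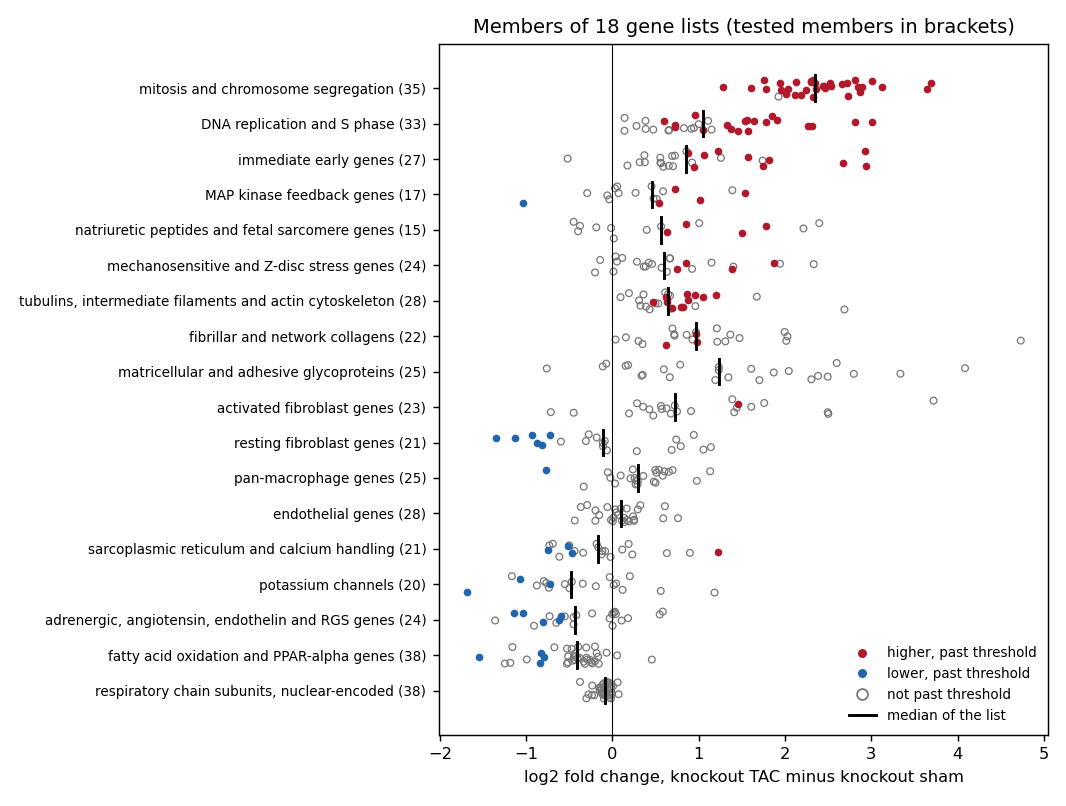
Log2 fold change of knockout TAC minus knockout sham (horizontal axis) for each tested member of 18 gene lists (rows, number of members in brackets); filled red and blue points passed an adjusted p of 0.05, open points did not, and bars are list medians. The mitosis row lies wholly to the right of 0 with 34 of 35 members filled, the collagen and matricellular rows lie mostly to the right with 3 and 0 filled, and the fatty acid row lies mostly to the left with 4 filled.

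Of called genes that averaged 1 CPM or more in one of the groups, large increases included Pbk (3.38, SE 0.53), a mitotic kinase, Pimreg (3.32, SE 0.54), Cdca5 (3.12, SE 0.53), which codes for sororin of the cohesin complex, Ptgs2 (3.2, SE 0.77), the inducible cyclooxygenase, and Mgam (3.01, SE 0.59), an α-glucosidase. Large decreases included those of Amd-ps3 (-3.76, SE 0.71), an annotated processed pseudogene, whose counts are uncertain where reads also match its parent gene, Clec18a (-2.32, SE 0.57), Scd4 (-2.18, SE 0.48), a stearoyl-CoA desaturase, and Cngb3 (-1.9, SE 0.49), a cyclic nucleotide-gated channel subunit. Counts were low, with 2, 7, 10 and 4 Clec18a reads in knockout TAC and 30 and 21 in knockout sham. Better measured were Abca4, a lipid flippase, with 2.83, 3.01, 2.65 and 1.9 CPM in knockout TAC and 9.61 and 8.23 CPM in knockout sham (log2 fold change -1.77, SE 0.23, adjusted p = 0.00223). Cish, a feedback inhibitor of cytokine receptors that signal through STAT5, had 48.1, 39, 53 and 50.9 CPM in knockout TAC and 109 and 91.1 CPM in knockout sham (log2 fold change -1.07, SE 0.15, adjusted p = 0.00302). Neither overlapped between groups, and both calls were lost without knockout sham replicate 1.

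Genes called in the knockout mostly moved the same way in wild type hearts, whose TAC and sham libraries are separate from those of the knockout. Of the 374 genes that rose in the knockout, 369 had a positive fold change in wild type and 241 passed there too. Of the 274 that fell, 269 were negative and 164 passed. The wild type values include the library labelled as wild type TAC, replicate 1, whose Ccl24 count goes against its label. Neither these counts nor those by list in the next paragraph were repeated without it. Over all 15876 genes tested, 1009 passed as higher and 921 as lower in wild type. The share of all genes tested with the same sign in both genotypes was not counted. A test of the difference between the responses (genotype by surgery interaction) called 0 genes (0%) with edgeR. An unadjusted p under 0.05 was found for 647 (4.08%), while DESeq2 called 7 and limma voom 0. Without the library labelled as wild type TAC, replicate 1, edgeR called 3. Smallest among the genes that rose in the knockout was the p of Sik1, with a log2 fold change of 1.02 in knockout and -0.08 in wild type (interaction adjusted p = 0.107), then that of Apold1 with 1.53 in knockout and -0.12 in wild type (adjusted p = 0.107). Among genes that fell it was Cd163, with -0.77 in knockout and 0.63 in wild type (adjusted p = 0.348), followed by Trhde, a peptidase gene at a low level, with -2.43 and 0.88 (adjusted p = 0.701).

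By list, 13 of 27 immediate early genes had an unadjusted interaction p under 0.05, with the knockout response the higher at 12 of them, and so did 6 of 17 feedback genes, 5 of them higher. The knockout response was the lower at each of 7 of 21 resting fibroblast genes, 7 of 25 pan-macrophage genes and 9 of 24 complement and coagulation genes that passed the same unadjusted p. Pdgfra had a log2 fold change of -0.31 in knockout and 0.29 in wild type, and Adgre1 one of 0.21 in knockout and 0.89 in wild type. Mitosis, by contrast, had 2 of 35 such genes, and the collagens 1 of 22, shares near the 4.08% of all genes tested. None of these differences passed an adjusted p of 0.05.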

How the data were processed

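The authors deposited raw counts per gene, whole numbers with no normalization. Per the submitters' processing notes, HISAT2 2.1.0, FastQC, featureCounts and edgeR were used with GRCm38; the sources used here give neither their roles nor the annotation or strand setting. Of 54532 gene IDs, 54495 were in GENCODE M21.

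Counts of all 14 libraries were fitted with edgeR 4.0.16 in R 4.3.3 (filterByExpr, TMM factors, robust glmQLFit over the 4 group means), which left 15876 genes, with Benjamini-Hochberg adjustment over them. P-values set a difference between group means against the spread between libraries. That spread was estimated over all 14 libraries, with information shared across genes. A floor of 3 counts covers counting error only. CPM used TMM-scaled totals. Alternatives were RLE factors, other filters, DESeq2 1.42.0, limma 3.58.1 voom with robust moderation, the 6 knockout libraries alone, a replicate block and leaving out each library. The fit was tested on simulated counts. No pair of knockout replicates agreed within sampling noise (chi-square per degree of freedom 18.1 to 71).

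Lists and members were chosen with earlier results of these data known. Named genes are the 15 with the largest change in each direction at a mean of at least 1 CPM, of each list the 5 members lowest in p or, where 8 or fewer were called, all of these, 26 panel genes, and the 5 in each direction with the smallest p of the comparison and of the interaction; marker genes were named from fixed lists, and Ttk, Ier2, Btg2, AC105304.1, Lrr1 and Psca after their values were seen. Not every gene the rule takes is printed, and some items are not reported here. Promoters came from the first RefSeq window of each symbol, from 250 bases before the start to 50 after it, searched on both strands. Those printed belong to the members of a list with the smallest p whose window held a searched stretch of letters.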

Additional observations from a re-analysis of the deposited data

Results flagged for a closer look

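For nearly all genes named and for the mitochondrial share, the 4 knockout TAC libraries were searched for 1 outlying library. Its gap to its nearest neighbour had to take up most of their range. Chance alone marks about 5% of groups of 4, and 4 of 153 were marked. Adamts12 stood apart in TAC replicate 2 at 10.2 CPM, and Mcm6 in the same library at 21.2 CPM. Nr4a1 was far above the others in TAC replicate 1 at 62.5 CPM. The mitochondrial transcript mt-Nd2 was highest in TAC replicate 4 at 16640 CPM, the TAC library with the largest mitochondrial share. No fold change of a named gene was shown to differ between genotypes at an adjusted p of 0.05.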

How the results depend on the processing

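The number of genes called was the result that moved most. Of 648 calls (374 higher, 274 lower), DESeq2 gave 1329 (784 and 545) and the 6 knockout libraries alone 1458 (867 and 591), while limma voom gave 235 higher genes. Other size factors, filters or library sizes without mitochondrially encoded genes gave 578 to 682 calls. The difference between genotypes gave 0 calls but 3 with no filter and 7 with DESeq2. Leaving out 1 library gave 1 to 1361 calls, 1 to 763 higher, 0 to 598 lower and 0 to 3 for the difference between genotypes. Every called gene that could be fitted kept its sign under all of these alternatives. Nearly all called genes had no overlap between groups, so their signs could hardly change, and this adds little support to the calls. The cause of the moved counts was not tested. With the replicate number as a block, 367 genes passed, 258 higher and 109 lower. The labels do not say whether same-numbered TAC and sham libraries share more than a number. Their deviations from the group means gave r = 0.0492 for number 1 and 0.00501 for number 2. With 2 sham libraries these deviations mirror each other, so the values cannot tell whether a pairing exists. Among genes that did not pass, Ccl24 turned from 0.10 to -0.147 with the block. Leaving out 1 library took Ccl24 over -0.341 to 0.706, Pecam1 over -0.018 to 0.217, Irx4 over -0.046 to 0.109 and Tcf21 over -0.421 to 0.104 on the log2 scale, the knockout sham libraries giving the extremes. With 2 sham libraries, the spread rests on all 14 libraries, and where 1 sham library is left out the lone one is assumed to vary like the other groups. Genes under about 0.172 CPM had 3 counts or fewer in the shallowest library.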

Other observations

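Several groups of genes that the heart could have changed under load showed few or no calls in knockout TAC against knockout sham. Of 27 genes of glucose uptake and glycolysis none passed with edgeR (3 higher and 7 lower at an unadjusted p of 0.05, median 0.04), while DESeq2 called 1 higher and 4 lower and limma voom 1 lower. Of 23 folding chaperones of the endoplasmic reticulum none passed (5 higher and 3 lower at an unadjusted p of 0.05, median 0.11; DESeq2 called 3 higher and 1 lower, limma voom 0). Of 17 sodium, pacemaker and T-type calcium channel genes none passed (2 higher and 4 lower at an unadjusted p of 0.05, median -0.16; DESeq2 and limma voom called 0). Among 20 EGF ligands and genes of the IGF axis none passed (4 higher and 3 lower at an unadjusted p of 0.05, median 0.13; DESeq2 called 2 higher and limma voom 1 higher).

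No gene of the lists of other white blood cells passed. None of 17 MHC class II and dendritic cell genes passed (1 higher and 1 lower at an unadjusted p of 0.05, median -0.19), nor of 17 lymphocyte genes (0 higher and 1 lower, median -0.39), and DESeq2 and limma voom called 0 in both lists. None of 13 neutrophil, mast cell and eosinophil genes passed (0 higher and 1 lower, median -0.35; DESeq2 called 1 lower and limma voom 0). Interferon response genes were lowest in TAC replicate 1 at 25 of 26 members, and lysosome and autophagy genes were highest there at 24 of 25. Among the lysosome and autophagy genes Gusb, a lysosomal glucuronidase, rose (0.39, SE 0.10) and Ulk1 (-0.39, SE 0.09) and Fbxo32 (-0.46, SE 0.12), an autophagy kinase and an atrophy-linked ubiquitin ligase, fell, but none of the 3 passed without either knockout sham library.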
